A study of Mus musculus with 19 samples.

Results

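Ribosome biogenesis genes encode the proteins that transcribe, modify, cut and assemble ribosomal RNA into the subunits of new ribosomes. RNA polymerase I copies the large ribosomal RNA precursor in the nucleolus, RNA polymerase III copies 5S ribosomal RNA and transfer RNAs, and small nucleolar ribonucleoprotein particles (snoRNPs) then methylate and pseudouridylate the precursor while processing factors build the small and large subunits. Dividing blood progenitors keep this pathway active, and the transcription factors Myc and Mycn are known to drive many of its genes. The group described here was given as a list of 40 nucleolar, polymerase I and polymerase III genes, and all 40 were among the 18607 genes of the deposited table, with Utp4 listed under its older symbol Cirh1a. The list goes by name and function and its rule uses no measured value, but it was drawn up with earlier results of these data known.

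The study profiled RNA of mouse bone marrow progenitors on the path to innate lymphoid cells, in 19 sequencing libraries from sorted C57BL/6 cells. All-lymphoid progenitors (ALP, 7 libraries) were sorted as lineage-low, Ly-6D-low cells with Kit, IL-7Ra and high Flt3. Early innate lymphoid progenitors (EILP, 7 libraries) were lineage-low, Ly-6D-low and CD122-low with Kit, high GFP, little Thy-1.2 and an IL-7Ra level from low to intermediate, and innate lymphoid cell precursors (ILCp, 5 libraries) differed from these in being positive for Thy-1.2 and integrin a4b7, with high IL-7Ra. All ALP and EILP libraries and ILCp 1, 2 and 3 carried 1 copy of the Tcf7EGFP reporter, in which GFP follows Tcf7, whereas ILCp 4 and 5 carried 1 copy of Plzf-cre-GFP, so the GFP gate read a different gene in them. The labels name 5 batches: batches 1, 2 and 4 hold all 3 groups, batch 3 holds EILP 3 and 4 alone, and batch 5 holds ALP and EILP. The labels give neither ages nor whether libraries came from separate or pooled animals. The p-values below therefore rest only on the spread among these libraries, which may be partly technical.

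Levels are read counts scaled to library size, as deposited on a log2 scale (log2 CPM), and a difference of 1 is a doubling. The underlying counts are not in the values, so the depth of each library is unknown and no counting interval was computed; the CPM values summed to 908573 to 1035200 per library. Several sorting markers followed the gates, but the integrin genes did not separate ILCp from EILP. The summed CPM of Kit, Il7r, Flt3 and Dntt, to which Dntt gave the most in ALP, was 4639 to 11486 in ALP, 713 to 1143 in EILP and 1618 to 2024 in ILCp, while Kit itself was 0.69 log2 higher in EILP than in ALP and Il7r 2.46 higher in ILCp than in ALP. Tcf7 lay between −2.66 and 3.59 log2 CPM in ALP, 8.47 and 13.07 in EILP and 8.95 and 9.56 in ILCp. Thy1, part of the ILCp gate, was 4.60 to 6.65 log2 CPM in ILCp and at most 1.16 in EILP. For the integrin a4b7 of that gate, Itga4 and Itgb7 in ILCp differed from EILP by −0.62 ± 0.31 and 0.15 ± 0.24 log2. Neither passed the test used below (limma adjusted p 0.333 and 0.551). Dntt is not part of the ALP gate. Flt3, which is, differed by −2.87 ± 1.19 in EILP against ALP and did not pass (limma adjusted p 0.219). Markers of other cells also differed between the groups. The stromal and bone genes Col1a1, Col1a2, Sparc and Bglap summed to 2.93 to 1419 CPM in EILP, against 0.318 to 3.81 in ALP and 0.174 to 4.83 in ILCp, with Col1a1 in EILP 1 at the same −0.78 log2 CPM as ALP 1 and ILCp 1. Without the counts it cannot be told whether such an equal low value holds any reads, so it is not read as a measured level. The 7 granulocyte genes, among them Mpo and Elane, summed to 1551 to 37425 CPM in EILP, 470 to 4653 in ALP and 89.1 to 1473 in ILCp. Mpo and Elane gave most of that sum, and Camp, Ltf and S100a9 had lower estimates in EILP than in ALP (−3.19, −2.91 and −1.47 log2). By the test used below, 2 of the 4 stromal genes were higher in EILP than in ALP and 2 lower in ILCp than in EILP, and of the granulocyte genes 0 and 2 of 7. From ALP to ILCp, 2 of 4 plasmacytoid dendritic cell genes (Siglech and Irf8) and 2 of 5 B cell genes (Ebf1 and Cd79b) fell, and 2 of 5 T cell genes (Cd3d and Cd3g) and 2 of 4 natural killer cell genes (Ncr1 and Gzma) rose. The other 2 natural killer cell genes, Klrb1c and Prf1, had estimates below 0 there. From EILP to ILCp, Irf8 fell and none of the B, T and natural killer cell genes passed. Ccr9, a plasmacytoid gene, was estimated 5.85 ± 2.10 log2 higher in ILCp but did not pass (limma adjusted p 0.156). From ALP to EILP, Siglech (−8.45 ± 1.43), Ccr9 (−7.81 ± 1.77) and Ebf1 (−5.66 ± 1.55) fell and Gzma (6.23 ± 1.30) rose. No T cell gene passed there. The summed CPM of these lists in ALP, EILP and ILCp was 601 to 1531, 545 to 996 and 133 to 552 for the plasmacytoid genes, and 76.9 to 209, 51.4 to 84.2 and 27.0 to 56.4 for the B cell genes. It was 0.140 to 1.29, 1.19 to 12.2 and 0.881 to 36.1 for the T cell genes, and 0.400 to 19.2, 0.213 to 90.7 and 4.93 to 58.5 for the natural killer cell genes. The gate for these cells leaves out lineage-marked cells, and the part of any of these lists in the results below was not tested. In bulk RNA of this kind, fewer cells of a type and less RNA per cell cannot be told apart.

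Because many ribosome biogenesis genes carry the E-box CACGTG, the sequence that Myc bound to Max recognises, the promoters of the 40 genes were read from RefSeq (GRCm38.p6) in windows of 300 bases, 250 before and 50 after the annotated start. A window was at hand for 36 of them, and Rrs1, Bop1, Fbl and Npm1 had none. CACGTG, which reads the same on both strands, was in the windows of 7 of the 36 genes (19.4%), against 8.09% of 27025 genes with a window. Of the 7 matches, 6 began after the start, whereas 13.9% of all 2589 matches in the table did. The 7 matches are shown, each in a 30-base stretch written 5′ to 3′ on the strand of the gene, with the E-box in capitals, because they are the sequence to set beside the levels of Myc and Mycn below. The motif began at position 41 in Mybbp1a, −60 in Nop2, 3 in Pes1, 25 in Tsr1, 38 in Utp20, 16 in Utp4 and 18 in Wdr43, counting the annotated start as 1.
Mybbp1a (chr11:72441347-72441376, plus strand): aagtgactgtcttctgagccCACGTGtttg
Nop2 (chr6:125131811-125131840, plus strand): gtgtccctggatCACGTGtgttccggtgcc
Pes1 (chr11:3963965-3963994, plus strand): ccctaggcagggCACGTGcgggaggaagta
Tsr1 (chr11:74898092-74898121, plus strand): tcacttggtgcaCACGTGgactgcagaatg
Utp20 (chr10:88826765-88826794, minus strand): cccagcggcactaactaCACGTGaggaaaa
Utp4 (chr8:106893643-106893672, plus strand): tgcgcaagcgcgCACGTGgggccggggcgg
Wdr43 (chr17:71616220-71616249, plus strand): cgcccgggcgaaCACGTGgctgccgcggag

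A second motif, CCGGAA or its reverse complement TTCCGG, which holds the GGAA core that ETS-family factors recognise, was in the windows of 18 of the 36 genes (50%), against 16.7% of all genes with a window. Of the members whose RNA differed between groups below, 9 had a window. CACGTG was in 3 of these 9 (33.3%), Mybbp1a, Pes1 and Wdr43, and the second motif in 2 (22.2%), Nhp2 and Nop58. The stretches of Nhp2 and Nop58 are shown with the second motif in capitals because the promoters of both genes hold no CACGTG in this window. In Nop58 the first line is the forward and the second the reverse-complement match. A match is a string of letters and not a measured binding site.
Nhp2 (chr11:51619738-51619767, plus strand): ccacttgaaaacCCGGAAgtgatgtcggag
Nop58 (chr1:59684897-59684926, plus strand): ggcgggaaaaacCCGGAAatgatctcacgc
Nop58 (chr1:59684868-59684897, plus strand): aaggccgtctctTTCCGGattctactgtgg

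The ribosome biogenesis genes were lower in ILCp than in EILP for 38 of 40, with a median difference of −0.52 log2, and 5 of these passed the test: Wdr12, Npm1, Mybbp1a, Nhp2 and Pes1 fell, and none rose. Against ALP, 34 of 40 were lower in ILCp with a median of −0.39, and 8 fell: Wdr12, Dkc1, Npm1, Mybbp1a, Nop16, Wdr43, Nop56 and Nop58. Between ALP and EILP no member passed the test, and the median difference was 0.15, higher in EILP. The test was limma's moderated test with batch in the model, fitted to all 18607 genes and all 19 libraries, with an adjusted p below 0.05 as the threshold. In all, 10 members passed in at least 1 comparison and 3 (Wdr12, Npm1 and Mybbp1a) in both comparisons with ILCp, which share the ILCp libraries.

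The members' counts were read against those of all genes in the same fit. Of all genes, 3.21% passed in ILCp versus EILP in either direction and 1.46% passed as lower in ILCp, against 5 of 40 members. In ILCp versus ALP these shares were 8.24% and 4.39%, against 8 of 40. In EILP versus ALP 5.05% of all genes passed, against 0 of 40, with 5 members at an unadjusted p below 0.05. The median difference over all genes was −0.08 for ILCp versus EILP, −0.03 for ILCp versus ALP and 0.00 for EILP versus ALP, and 53.8% of all genes were below 0 in ILCp versus EILP. Every ILCp library lay below every EILP library for 15 of 40 members (5.34% of all genes) and below every ALP library for 9 of 40 (4.96% of all genes). Among the 9303 genes above the median level these shares were larger, 8.76% and 7.87%. Of those 9303 genes, 241 passed as lower in ILCp versus EILP and 636 in ILCp versus ALP. No member had every EILP library above every ALP library (2.36% of all genes). These counts rest on values from which batch had been removed, so they leave out the spread between batches.

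**Figure D1:**
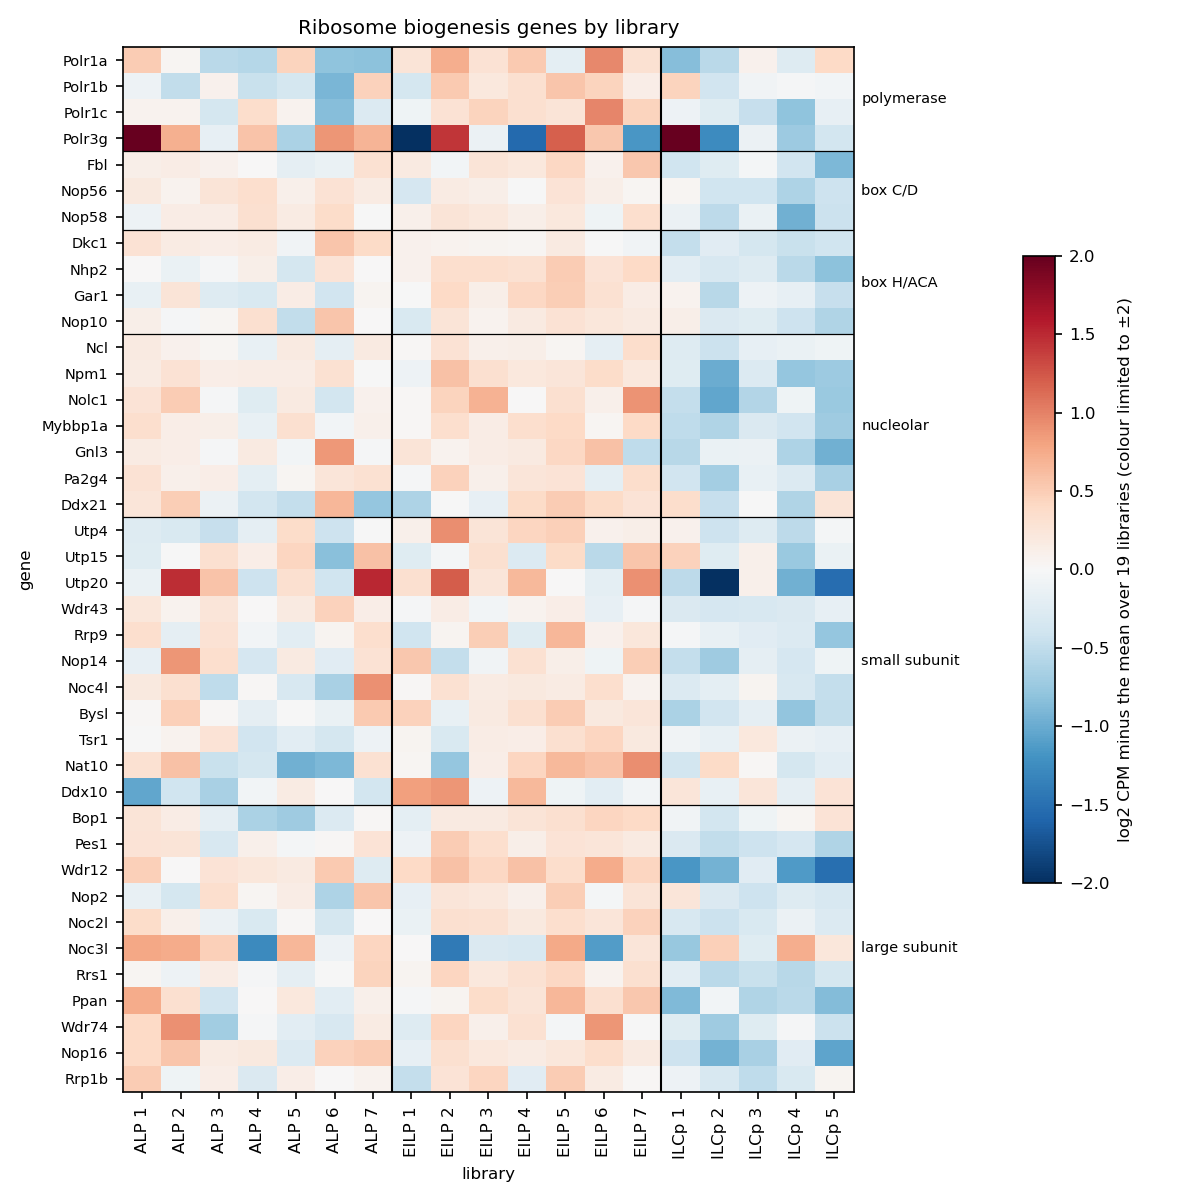
Level of each of the 40 members (rows, grouped by role) in each of the 19 libraries (columns), as log2 CPM minus the gene's mean over all libraries; red is above and blue below that mean, and the colour stops at ±2. The 5 ILCp columns are mostly blue, and Polr3g, Utp20 and Noc3l vary most between libraries of a group.

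The median difference between ILCp and EILP was below 0 in each batch with both groups but was not of one size. Each of these batches holds only 1 EILP library. ILCp 1 was set against EILP 1 in batch 1, ILCp 2 against EILP 2 in batch 2, and ILCp 3 to 5 against EILP 5 in batch 4. The median over the members was −0.26 in batch 1 (28 of 40 lower in ILCp), −0.63 in batch 2 (37 lower) and −0.74 in batch 4 (38 lower). Across all 3 batches 23 members were lower in ILCp in each, against 15.9% of all genes and 23.1% of those above the median level. For ILCp versus ALP the batch medians were −0.42, −0.40 and −0.31, and for EILP versus ALP they were −0.25 in batch 1, 0.22 in batch 2, 0.43 in batch 4 and 0.12 in batch 5. The sign of the EILP versus ALP median therefore differed between batch 1 and the others. In batch 4 the Plzf-cre-GFP libraries, ILCp 4 and 5, were lower than the Tcf7EGFP library, ILCp 3, for 30 of 40 members, with a median difference of −0.14, against 42.7% of all genes and a median of 0; this rests on 3 libraries and was not tested.

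Per library, the median level over the 40 members was 6.59, 6.20, 6.44, 6.17 and 6.23 log2 CPM in ILCp 1 to 5. In EILP it was 6.57 in EILP 1 and between 6.79 and 7.05 in the others. ALP libraries spread widest, from 6.28 in ALP 6 to 6.96 in ALP 7, and overlapped both other groups. EILP 1 was the only EILP library below an ILCp library in this median.

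Among the polymerase genes none passed in any comparison. Polr1a, the catalytic subunit of RNA polymerase I, was 0.66 ± 0.32 log2 higher in EILP than in ALP (SE; limma adjusted p 0.298). Polr1b, the second-largest subunit, and Polr1c, which polymerases I and III share, were both 0.51 ± 0.24 higher in EILP, with adjusted p 0.287 and 0.281 by limma. The 95% intervals of these differences reached up to 1.34 for Polr1a and 1.02 for the others, so a doubling of Polr1a was within its interval. Against ALP, ILCp differed by 0.02, 0.23 and −0.22 for Polr1a, Polr1b and Polr1c. Polr3g, a polymerase III subunit known for its expression in embryonic stem cells, was the most variable member, with a pooled SD within groups of 1.97 log2 CPM. It ranged from −2.65 to 4.95 in EILP and was 7.23, 2.27, 3.41, 2.79 and 3.16 in ILCp 1 to 5. Its interval for ILCp versus EILP ran from −1.96 to 4.12, so these data say little about this gene.

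The box C/D snoRNP proteins guide 2′-O-methylation of ribosomal RNA. Nop56 (chr2:130274430-130279313), a core scaffold protein, was 8.23 to 8.51 log2 CPM in ALP with a median of 8.36, and 7.82 to 8.44 in EILP with a median of 8.28. In ILCp 1 to 5 it was 8.20, 7.77, 7.77, 7.55 and 7.75, below every ALP library but with ILCp 1 inside the EILP range. It fell by 0.56 ± 0.14 against ALP (limma adjusted p 0.0243). Nop58 (chr1:59684971-59719044), its partner in the core, was 7.95 to 8.42 in ALP with a median of 8.20 and 7.97 to 8.38 in EILP with a median of 8.26. ILCp 1 to 5 stood at 7.93, 7.54, 7.92, 7.10 and 7.63, so that the ILCp libraries lay below every library of both other groups, ILCp 1 and 3 only narrowly. Nop58 fell by 0.58 ± 0.17 against ALP (limma adjusted p 0.0422), and its −0.59 ± 0.17 against EILP had an adjusted p of 0.0737 by limma. Fbl, the methyltransferase itself, differed by −0.62 ± 0.19 from EILP (limma adjusted p 0.0820) and −0.44 ± 0.18 from ALP (limma adjusted p 0.159).

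The box H/ACA proteins carry out pseudouridylation and also form part of telomerase. Dkc1 (chrX:75095854-75109777), the pseudouridine synthase, was 8.03 to 8.66 log2 CPM in ALP with a median of 8.26 and 8.03 to 8.28 in EILP with a median of 8.15. ILCp 1 to 5 were at 7.63, 7.87, 7.75, 7.65 and 7.70, all below every ALP and EILP library. Dkc1 fell by 0.61 ± 0.12 against ALP (limma adjusted p 0.00489), and its difference from EILP was −0.43 ± 0.13 (limma adjusted p 0.0818). Nhp2 (chr11:51619735-51623714), a core protein that binds the guide RNA, was 7.13 to 7.75 in ALP with a median of 7.48 and 7.56 to 7.99 in EILP with a median of 7.81. In ILCp 1 to 5 it was 7.27, 7.16, 7.22, 6.94 and 6.66, below every EILP library and overlapping the lower ALP libraries. Nhp2 fell by 0.75 ± 0.16 from EILP to ILCp (limma adjusted p 0.0213), and its 0.33 ± 0.14 from ALP to EILP did not pass (limma adjusted p 0.215). Gar1 and Nop10, the other core proteins, were −0.51 ± 0.23 and −0.42 ± 0.20 against EILP, neither past the threshold. Nop10 had the highest level per length of all 40, at 1721, 1788 and 1341 CPM per kb of coding sequence in ALP, EILP and ILCp, followed by Npm1 at 1235, 1317 and 726; coding length leaves out untranslated bases, which weighs on a short reading frame such as that of Nop10 (192 bases).

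Of the 7 multifunctional nucleolar proteins, all were lower in ILCp than in EILP and ALP, and Npm1 and Mybbp1a fell in both comparisons. Npm1 (chr11:33152287-33163206), nucleophosmin, a histone and ribosomal protein chaperone, was 9.90 to 10.22 log2 CPM in ALP with a median of 10.06 and 9.81 to 10.49 in EILP with a median of 10.15. In ILCp 1 to 5 it was 9.68, 8.91, 9.64, 9.14 and 9.19. Every ILCp library lay below every other library, ILCp 2 lowest, and Npm1 fell by 0.86 ± 0.16 against EILP (limma adjusted p 0.00905) and by 0.77 ± 0.16 against ALP (limma adjusted p 0.00536). Npm1 has processed pseudogenes, and the counting of reads shared with them is not given in the sources used here. Mybbp1a (chr11:72441355-72451768), a nucleolar co-repressor that takes part in ribosomal RNA processing, was 8.06 to 8.56 in ALP with a median of 8.33 and 8.24 to 8.62 in EILP with a median of 8.55. ILCp 1 to 5 were at 7.70, 7.61, 7.93, 7.84 and 7.50, without overlap with either group. Mybbp1a fell by 0.74 ± 0.14 against EILP (limma adjusted p 0.0109) and by 0.62 ± 0.14 against ALP (limma adjusted p 0.0104).

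The other nucleolar genes did not pass in either comparison. Nolc1, a chaperone of snoRNPs, had the largest difference of these from EILP, −0.94 ± 0.26 (limma adjusted p 0.0621). Gnl3 (nucleostemin) and Pa2g4 differed from EILP by −0.65 ± 0.26 and −0.60 ± 0.18. Ncl, nucleolin, lay within a narrow band: 9.27 to 9.63 log2 CPM in ALP, 9.28 to 9.80 in EILP and 9.03 to 9.37 in ILCp, with −0.32 ± 0.12 for ILCp versus EILP (limma adjusted p 0.195). The 95% interval for Ncl was −0.58 to −0.06, and that for Npm1, −1.20 to −0.52, overlapped it. Whether the change of Ncl differed from that of Npm1 was not tested. The RNA helicase Ddx21 differed by −0.20 ± 0.35 from EILP, with an interval from −0.94 to 0.54.

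**Figure D2:**
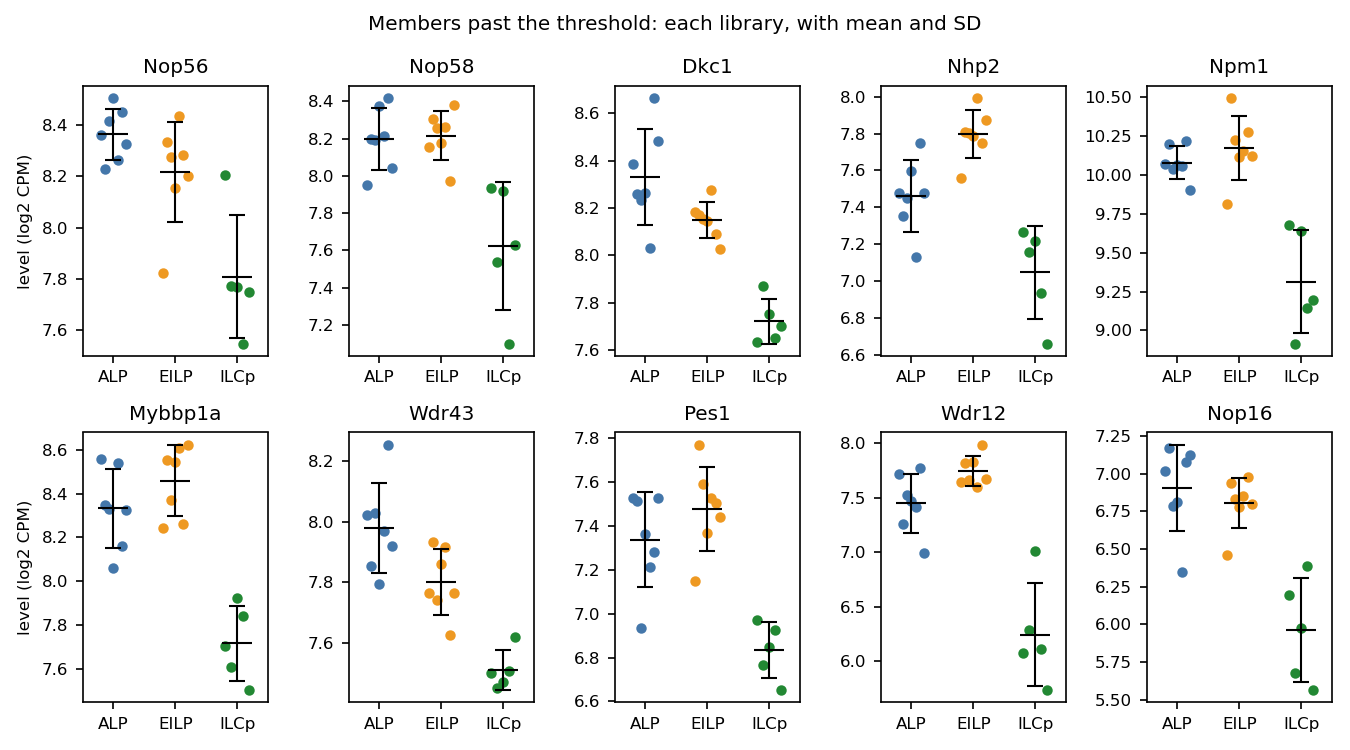
Level in log2 CPM (y axis) of the 10 members past the threshold in at least 1 comparison; each point is a library, the long bar is the group mean and the error bar the SD over libraries (7 ALP, 7 EILP, 5 ILCp). The y axes differ between panels and do not start at 0; the ILCp mean is lowest in each panel, and its points do not overlap either group in Npm1, Mybbp1a, Dkc1, Nop58 and Wdr43.

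Of the 11 genes of small-subunit assembly, Wdr43 fell and the others did not pass. Wdr43 (chr17:71615895-71659031), with Utp4 and Utp15 a part of the complex that joins the precursor as it is transcribed, had the smallest pooled SD of all members, 0.113 log2 CPM. It was 7.80 to 8.25 in ALP with a median of 7.97 and 7.63 to 7.93 in EILP with a median of 7.77, and it was 7.50, 7.45, 7.47, 7.51 and 7.62 in ILCp 1 to 5. All ILCp libraries were below all others, ILCp 5 only just below the lowest EILP library, and the fall was 0.47 ± 0.11 against ALP (limma adjusted p 0.0182) with −0.29 ± 0.12 against EILP (limma adjusted p 0.222). Utp4 had the smallest p of all members in EILP versus ALP. It was 6.28 to 7.11 in ALP with a median of 6.50, 6.84 to 7.68 in EILP with a median of 7.01, and 6.84, 6.34, 6.50, 6.23 and 6.71 in ILCp 1 to 5. The groups overlapped, and its difference of 0.52 ± 0.20 between EILP and ALP had a limma adjusted p of 0.163.

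Ddx10, an RNA helicase of the small-subunit pathway, was the third in that order by p. It was 4.98 to 6.18 log2 CPM in ALP with a median of 5.65, 5.80 to 6.90 in EILP with a median of 5.96, and 6.26, 5.87, 6.26, 5.84 and 6.29 in ILCp. It was 0.60 ± 0.27 higher in EILP than in ALP (limma adjusted p 0.268), and the groups overlapped. Within batches the Ddx10 difference between EILP and ALP was 1.86, 1.41, −0.04 and −0.07 in batches 1, 2, 4 and 5, so it came from batches 1 and 2. Utp20, a large scaffold protein, had the largest estimated difference from EILP of any member, −1.67 ± 0.63, but with ILCp values of 4.81, 2.16, 5.44, 4.38 and 3.81 it did not pass (limma adjusted p 0.183). Bysl, an assembly factor, differed by −0.75 ± 0.25 from EILP (limma adjusted p 0.128). Tsr1, a late-acting factor, and Nat10, which acetylates ribosomal RNA, differed from EILP by −0.20 ± 0.21 and −0.38 ± 0.41. Tsr1 shares 32.3% of its exon bases with Srr on the other strand, and the library kits do not mark strand, so reads of the pair cannot be told apart; 13 members overlap another protein-coding gene in this way, and Noc2l (20.9%, with Samd11) was the only other above 10%.

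Large-subunit assembly held the largest fall. Wdr12 (chr1:60069785-60098645) forms the PeBoW complex with Pes1 and Bop1, which is needed to process the precursor of the large subunit. It was 6.99 to 7.77 log2 CPM in ALP with a median of 7.47 and 7.60 to 7.98 in EILP with a median of 7.67. ILCp 1 to 5 were at 6.08, 6.29, 7.01, 6.11 and 5.74, all below every EILP library, and ILCp 3 alone overlapped ALP, whose lowest library was ALP 7. Wdr12 fell by 1.50 ± 0.23 against EILP (limma adjusted p 0.00269) and by 1.20 ± 0.23 against ALP (limma adjusted p 0.00313), to 0.355 and 0.435 times the level there. Its difference from EILP was −1.56, −1.53 and −1.31 in batches 1, 2 and 4.

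Pes1 (chr11:3963975-3980004) was 6.94 to 7.53 log2 CPM in ALP with a median of 7.36, and 7.15 to 7.77 in EILP with a median of 7.51. In ILCp 1 to 5 it was 6.97, 6.77, 6.85, 6.93 and 6.65, below every EILP library and overlapping ALP at its lower end. Pes1 fell by 0.65 ± 0.17 against EILP, at a limma adjusted p of 0.0466 that lay just inside the threshold. Bop1, the remaining protein of the complex, was 6.99, 6.71, 6.98, 7.11 and 7.34 in ILCp and 6.87 to 7.50 in EILP, which overlapped. Its difference was −0.27 ± 0.23 against EILP with an interval from −0.75 to 0.22, and 0.15 ± 0.22 against ALP. Whether the change of Bop1 differed from that of Wdr12 or Pes1 was not tested.

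Nop16 (chr13:54584185-54590090), a nucleolar protein of the same pathway, was 6.35 to 7.17 log2 CPM in ALP with a median of 7.01 and 6.46 to 6.98 in EILP with a median of 6.83. ILCp 1 to 5 were at 6.20, 5.68, 5.98, 6.39 and 5.56, below every EILP library, with ILCp 4 above the lowest ALP library. Nop16 fell by 0.94 ± 0.22 against ALP (limma adjusted p 0.0120), and its −0.84 ± 0.22 against EILP had a limma adjusted p of 0.0534. Rrs1 and Ppan, both factors of early large-subunit particles, lay close to it with −0.68 ± 0.18 and −0.90 ± 0.27 against EILP (limma adjusted p 0.0545 and 0.0854). Noc2l differed by −0.53 ± 0.16 and Wdr74 by −0.53 ± 0.32. Nop2, an rRNA methyltransferase, and Rrp1b had differences of −0.37 ± 0.25 and −0.34 ± 0.25. Noc3l, with Polr3g the only member estimated higher in ILCp than in EILP, was 0.39 ± 0.55, with an interval from −0.78 to 1.57.

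**Figure D3:**
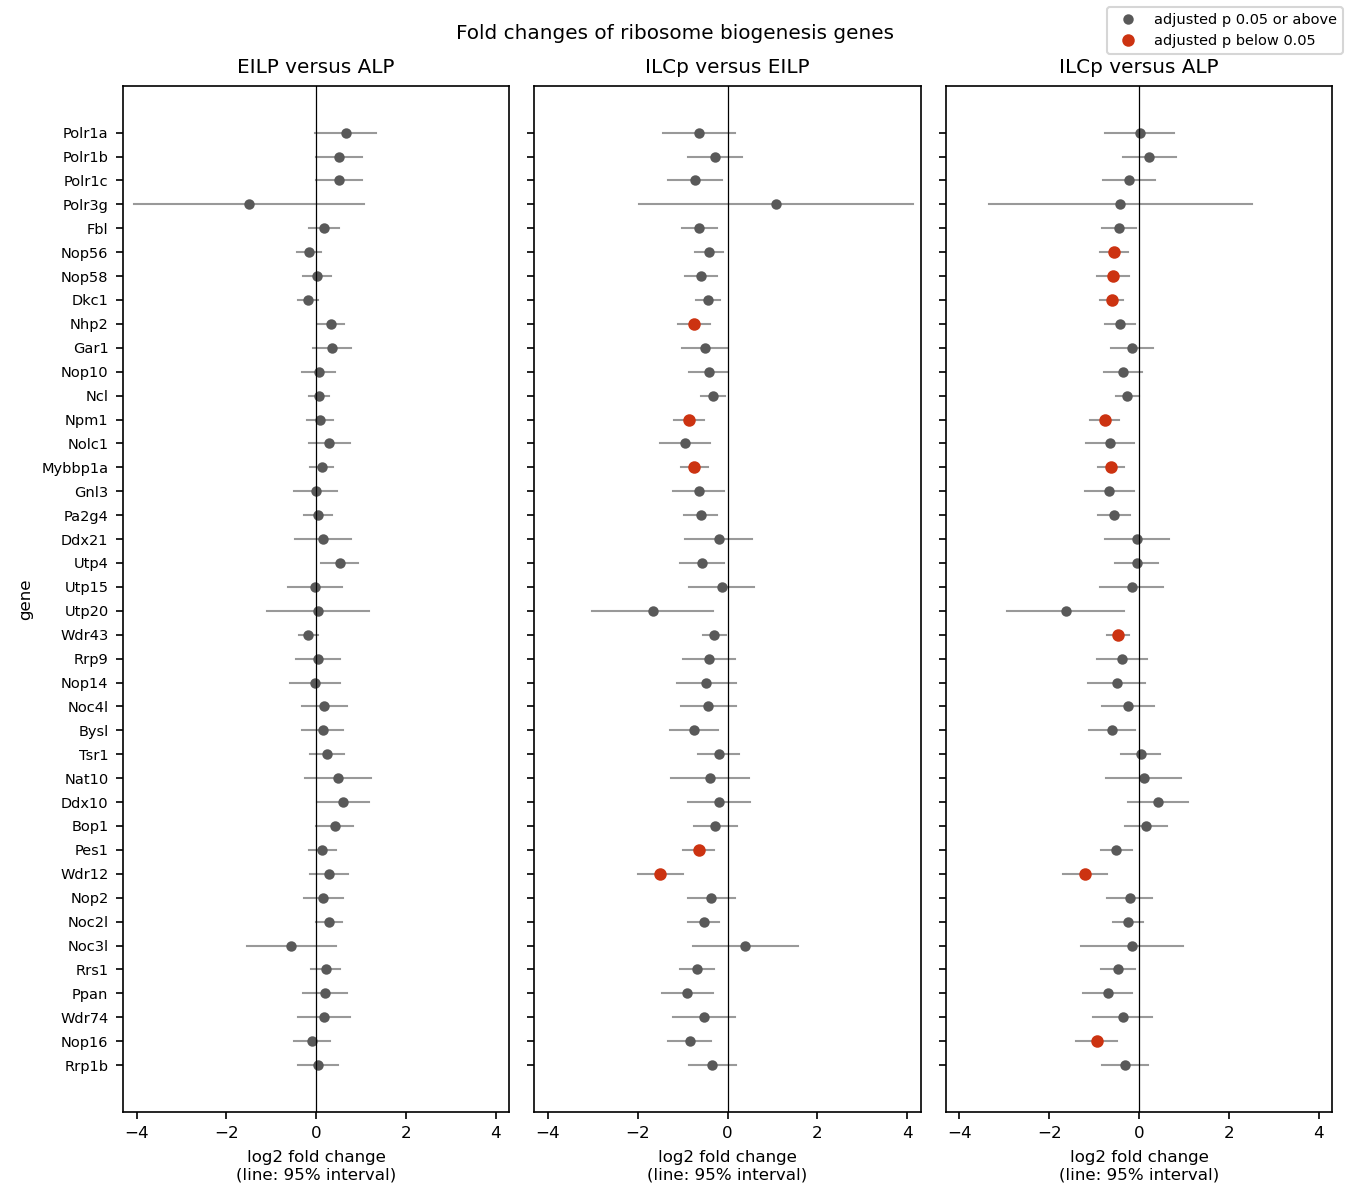
Log2 fold change of each member (x axis) in the 3 comparisons, from limma with batch in the model; lines are 95% intervals and red points passed at an adjusted p below 0.05. Nearly all points lie left of 0 in ILCp versus EILP (38 of 40) and ILCp versus ALP (34 of 40), and 31 of 40 lie right of 0 in EILP versus ALP without a red point.

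In EILP versus ALP the lack of calls was set against the width of the intervals. For 32 of 40 members the 95% interval lay within ±1 log2, a change of less than a doubling or halving, and the narrowest interval, that of Wdr43, ran from −0.39 to 0.04. This comparison also depended on scaling. The median over all genes was 0.00 in the values as deposited. Centring each library on its median moved it to 0.22, and the members' median from 0.15 to 0.36 with it. The members stood 0.15 above all genes in both, as they must, since centring shifts all genes of a library alike. After centring 4 members passed as higher in EILP, with 4.32% of all genes called higher against 2.25% before.

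How many members passed depended on single libraries more than the direction did. For ILCp versus EILP the count of 5 became 9 without EILP 1, 3 without EILP 2 and 1 without EILP 5, as the genes called lower over the whole table went from 271 to 203, 139 and 96, while the median stayed between −0.63 and −0.47 whichever library was left out. For ILCp versus ALP the count of 8 became 3 without ILCp 2 (from 816 to 436 over all genes), with medians between −0.46 and −0.31. Without the Plzf-cre-GFP libraries 2 and 5 members passed in these comparisons, and without all of batch 4, which holds them, 1 and 3; of all genes 0.666% and 0.844% were then called lower in ILCp versus EILP. Of the 31 other settings tried, Pes1 lost its call in 21 and Nop58 in 18. Nop56 lost it against ALP in 8, among them those without ALP 1, ALP 4, EILP 5 or ILCp 2 (limma adjusted p up to 0.383 over all settings), and Nhp2 against EILP in 7. Npm1 and Mybbp1a lost theirs in 5 each against EILP and in 4 and 3 against ALP, Wdr43 in 4, and Dkc1 and Nop16 in 3 each. Wdr12 lost its call in 1 setting in each comparison, the one that used only the libraries of the groups compared (limma adjusted p 0.0699 and 0.0563).

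A wider list of ribosome biogenesis genes outside the 40, of which 126 of 127 were in the table, showed the same order. In ILCp versus EILP 104 of 126 were below 0 with a median of −0.45, and 9 fell and 1 rose, against 1.46% of all genes called lower, 1.76% called higher and 53.8% below 0. The 3 with the smallest p that fell were Nhp2l1 (−0.97 ± 0.16, limma adjusted p 0.00312), the 15.5K protein of box C/D and U4 particles, Wdr18 (−0.95 ± 0.16, limma adjusted p 0.00430), of a large-subunit release complex, and Exosc5 (−1.10 ± 0.20, limma adjusted p 0.00805), an exosome subunit. Polr3f, a polymerase III subunit, was the 1 that rose, by 1.25 ± 0.29 (limma adjusted p 0.0266). It was 6.28, 6.30, 6.08, 5.49 and 6.59 log2 CPM in ILCp and at most 5.29 in EILP, without overlap.

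In ILCp versus ALP 12 of the 126 fell, against 4.39% of all genes, and Polr3f again rose, by 0.96 ± 0.28 (limma adjusted p 0.0427), with a median of −0.27 over the list. Rsl24d1, a placeholder protein of the maturing large subunit, fell by 0.99 ± 0.17 (limma adjusted p 0.00188) and Nhp2l1 by 0.84 ± 0.15 (limma adjusted p 0.00208). In EILP versus ALP none of the 126 passed, with 15 at an unadjusted p below 0.05 and a median of 0.13. The polymerase genes and factors of this list had the smallest median differences from ALP and EILP in ILCp, 0.00 and −0.19, and the exosome and snoRNP assembly genes had −0.46 and −0.82 against EILP, over 11 and 5 genes.

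**Figure D4:**
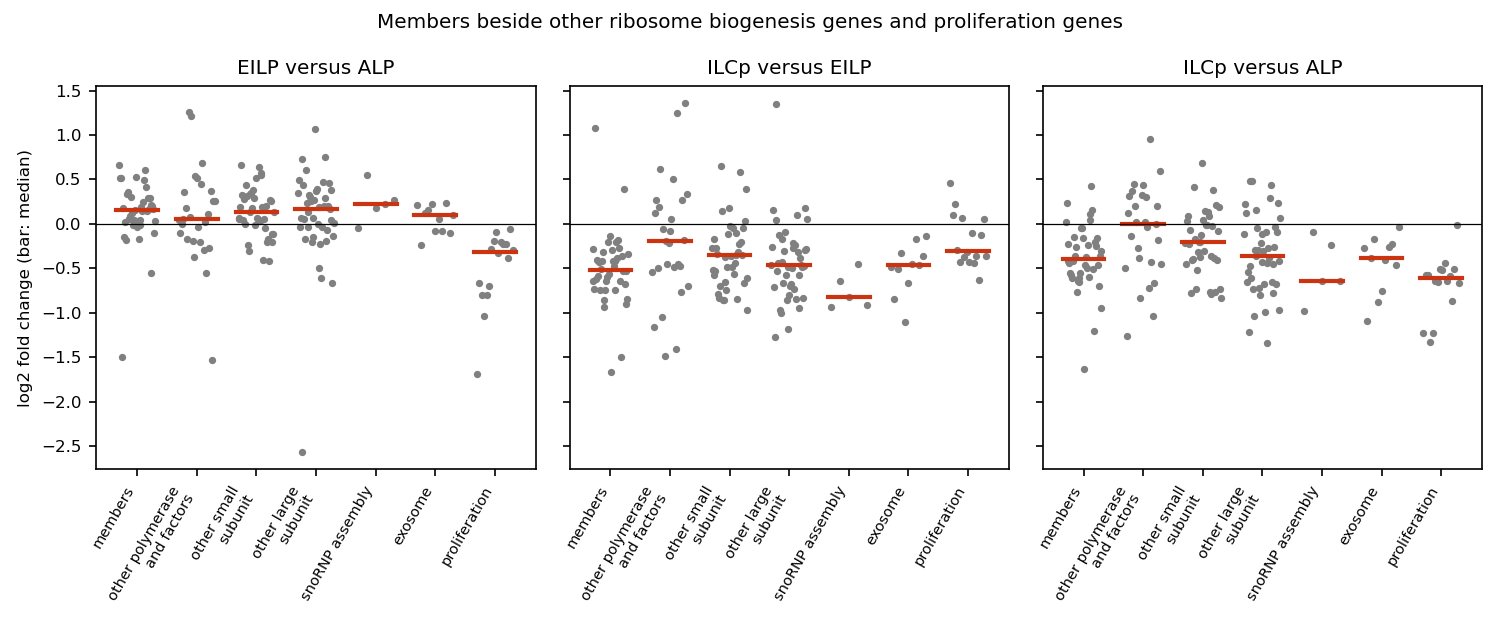
Log2 fold change (y axis) of the 40 members, the other ribosome biogenesis genes by function, and 16 proliferation genes in the 3 comparisons; each point is a gene and the red bar is the median of the list. In ILCp versus EILP the bars of all lists lie below 0, and in EILP versus ALP the ribosome biogenesis lists lie slightly above 0 and the proliferation genes below it (−0.31).

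Proliferation genes, which encode the machinery of DNA replication and mitosis, were set beside the members. In EILP versus ALP 3 of 16 fell, Cdk1 (−0.80 ± 0.16, limma adjusted p 0.00764), Ccnb1 (−0.80 ± 0.19, limma adjusted p 0.0207) and Top2a (−0.67 ± 0.17, limma adjusted p 0.0343), and all 16 were below 0, whereas 31 of the 40 ribosome biogenesis genes were above 0 there. In ILCp versus EILP 1 fell, the replication helicase subunit Mcm7 (−0.63 ± 0.16, limma adjusted p 0.0417). In ILCp versus ALP 9 of 16 fell, led by Cdk1 (−1.22 ± 0.19), Mcm7 (−0.86 ± 0.15) and Mcm5 (−0.64 ± 0.12), with limma adjusted p of 0.000602, 0.00194 and 0.00221.

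The Myc family genes did not move as one. Myc was 8.67, 8.70, 8.42, 8.01, 8.62, 7.93 and 8.79 log2 CPM in ALP 1 to 7, 7.48, 7.79, 7.71, 7.73, 7.90, 7.68 and 7.76 in EILP 1 to 7, and 7.30, 6.99, 7.86, 7.26 and 6.98 in ILCp 1 to 5. Every EILP library was below every ALP library, and ILCp 3 alone overlapped EILP. Myc fell by 0.72 ± 0.19 from ALP to EILP (limma adjusted p 0.0328) and by 1.17 ± 0.21 from ALP to ILCp (limma adjusted p 0.00236), and its −0.45 ± 0.22 from EILP to ILCp did not pass (limma adjusted p 0.327).

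Mycn ran otherwise. It was 3.88 to 5.80 log2 CPM in ALP with a median of 5.48, 7.36 to 7.88 in EILP with a median of 7.73, and 6.71, 5.99, 5.60, 5.54 and 5.79 in ILCp 1 to 5. All EILP libraries were above all others, and ILCp overlapped the upper ALP libraries. Mycn rose by 2.56 ± 0.33 from ALP to EILP (limma adjusted p 0.000160) and fell by 1.76 ± 0.39 from EILP to ILCp (limma adjusted p 0.0231). From ALP to EILP, where Myc fell and Mycn rose, none of the 40 ribosome biogenesis genes passed the test. Mycl fell from EILP to ILCp (limma adjusted p 0.0147), with levels of at least 3.88 log2 CPM in EILP and −4.18, 0.48, 2.09, −4.91 and −4.91 in ILCp 1 to 5. Mycl also passed as lower in ILCp than in ALP, with a difference of −6.65 log2. Its 0.21 ± 1.18 from ALP to EILP did not pass (limma adjusted p 0.980). No partner or antagonist of the list (Max, Mlx, Mnt, Mga, Mxi1, Mxd1, Mxd3 and Mxd4) passed in any comparison.

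**Figure D5:**
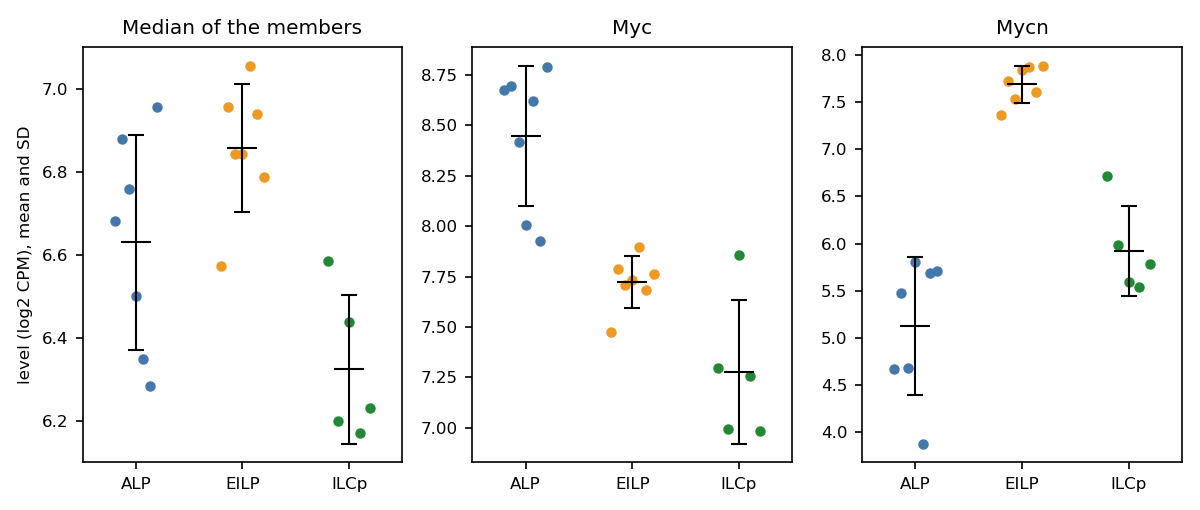
Median level of the 40 members, and levels of Myc and Mycn, in log2 CPM (y axes, which do not start at 0) by group; points are libraries, with the group mean and SD. Myc is highest in ALP and Mycn in EILP, and the members' median is lowest in ILCp, where ILCp 1 (6.59) lies above EILP 1 (6.57).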

How the data were processed

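RNA of sorted bone marrow progenitors was sequenced after SMARTer Ultra Low Input v3 and Nextera XT library preparation, per the labels' protocols. The submitters' processing notes name bcl2fastq 1.8.4, STAR 2.4.0h, edgeR, limma and mm10, with no role or order; the sources used here give neither annotation nor counting method. The deposited values are log2 CPM, made by the authors, for 18607 genes in 19 libraries, with 0 unused sample columns. From the values, batch had been removed before deposit: the largest batch coefficient beside the groups was 1.84e-08, against 6.01 for batch alone. No header or label records this step, and it makes SDs over libraries leave out the spread between batches. The same holds for ranges over libraries and for statements that groups did not overlap. Depth is unknown.

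Groups came from the library titles. All genes were fitted with limma 3.58.1 in R 4.3.3 (mean-variance trend, two-sided, batch as fixed effect, 12 residual degrees of freedom), and p-values were Benjamini-Hochberg adjusted over 18607 genes at 0.05; the fit was tested on simulated data. Batch 3 informs the errors only. Errors of fold changes are standard errors. Members, gene lists and tests were chosen with earlier results of these data known. Members past the threshold, the 3 with the smallest p per comparison, extremes of each role and up to 3 genes per direction of the other lists are named; other members and cell type markers named fall outside this rule, chosen with their values in view. Of the genes this rule took, 1 is not reported here. Gene positions, exons and coding lengths (APPRIS principal transcript) are from GENCODE M21 (GRCm38), and promoter windows from RefSeq (GRCm38.p6). Replicate numbers do not pair the libraries by any label.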

Additional observations from a re-analysis of the deposited data

Results flagged for a closer look

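The levels of the 40 members in each group were searched for a library far from the rest of its group by Dixon's criterion, in 120 groups of 5 or 7 libraries. It marked 9 single libraries, and chance marks about 1 in 20 groups of independent values. Removing batch forces libraries of the same batch against each other, so marks in such libraries are not independent. The 9 marks can therefore not be set against that share. Of these, 4 were low values of EILP 1: Polr3g at −2.65 log2 CPM (nearest library 1.97), Nop10 at 7.98 (8.37), Bop1 at 6.87 (7.25) and Nop16 at 6.46 (6.78). ILCp 1 was high in Polr3g at 7.23 (nearest 3.41) and in Nop2 at 7.10 (6.58). Batch 1 holds 1 library of each group, among them EILP 1 and ILCp 1. The high Polr3g value of ILCp 1 and the low value of EILP 1 are therefore not separate observations. The other marks were Gnl3 in ALP 6, high at 7.77 (7.09), Tsr1 in ILCp 3, high at 6.18 (5.90), and Noc3l in ALP 4, low at 3.23 (4.40).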

How the results depend on the processing

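The median differences kept their sign in every setting tried, and moved by more than the SD of the members' median within groups (0.202) only for EILP versus ALP after median centring (0.36); leaving out each library gave 0.09 to 0.24 there, −0.63 to −0.47 for ILCp versus EILP and −0.46 to −0.31 for ILCp versus ALP, where median centring gave −0.27; without the Plzf-cre-GFP libraries ILCp versus EILP gave −0.45. Some settings could not move these medians, because they leave each gene's estimate as it is. These were no batch term, no variance trend, robust variance, genes above the median level, and leaving out EILP 3, EILP 4 or batch 3. In them the median for ILCp versus EILP stayed at −0.52. Counts of members past the threshold moved more, as did those of all genes. For EILP versus ALP (0) median centring gave 4, no batch term 2 and each library left out 0. For ILCp versus EILP (5) the counts were 1 without a variance trend, 1 with only the groups compared, 1 without batch 4, 2 without the Plzf-cre-GFP libraries, 3 without ALP 7 and EILP 2, 9 among genes above the median level, 12 after median centring, 23 with no batch term and 1 to 9 with a library left out. For ILCp versus ALP (8) they were 2 without trend, 2 with only the groups compared, 3 without batch 4, 5 without the Plzf-cre-GFP libraries, 5 after median centring, 19 with no batch term and 3 to 10 with a library left out. With the replicate number as a block in place of batch, 17 members passed in ILCp versus EILP, 12 in ILCp versus ALP and 0 in EILP versus ALP; same-numbered libraries correlated at −0.64 to 0.12, above 0.1 in 1 of 17 pairs. Removing batch forces libraries of one batch against each other, and most pairs share a batch, so these correlations cannot say whether the numbers pair libraries. Genes called lower in ILCp versus EILP were 1.46% of the table, 9.18% with no batch term, 4.12% with the replicate block and 2.10% after median centring. They were 0.559% without a variance trend, 0.322% with only the groups compared and 0.607% without ALP 7 and EILP 2. Refitted alone, the 9303 genes above the median level had 358 called lower (3.85%). A fit with no batch term counts the batch-cleared values as if no degrees of freedom had been spent. Median centring moved the calls over all genes from 419 higher and 520 lower to 804 and 395 in EILP versus ALP, from 327 and 271 to 279 and 390 in ILCp versus EILP, and from 718 and 816 to 813 and 584 in ILCp versus ALP. For the other settings that use the same libraries the cause was not tested. The settings without ALP 7 and EILP 2, without batch 3 and without batch 4 were chosen after seeing the data. No pseudocount was varied, since the deposited values are already logs. No called member changed sign in any setting, though the settings that leave each gene's estimate as it is could not change any. In EILP versus ALP, where none was called, members below 0 went from 9 to 2 after median centring.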
